A study of Mus musculus with 28 samples.

Results

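The genes Col1a1, Col1a2, Col3a1, Dcn, Lum, Ogn, Igf2, Slc22a6, Slc6a13 and Aldh1a2, known as genes of meningeal fibroblasts and their collagen matrix, were followed through the mouse brain. They were chosen by name, with earlier results of these data known. They are 10 of the 20656 gene symbols that could be matched to probes of the array. Each of the 10 had 1 matched probe, and each of these probes was well above background in all 28 fractions, so that all 10 passed the filter on dim probes. The method, Transcriptome Tomography, collects the slices of a frozen brain in order, as fractions along 1 axis, and hybridises the RNA of each fraction to 1 array. The mice were C57BL/6J males at 3 weeks of age, with no treatment named, and 1 whole brain was cut in each of 3 planes, into 12 coronal, 6 horizontal and 10 sagittal fractions. No position was measured on more than 1 array, the effects of mouse and of plane cannot be told apart, and the label of the last coronal fraction names a following fraction pooled with it. The first and last fraction of each series, 6 in all, are called ends here and the other 22 are called inner fractions.

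The brain is wrapped in the meninges, whose fibroblasts secrete fibrillar collagen and the small proteoglycans that bind it. Meningeal fibroblasts also carry transporters at the barrier between blood and cerebrospinal fluid, and they are a source of retinoic acid and of insulin-like growth factor 2 for the tissue beneath. Fibroblasts of this kind also follow large vessels into the brain and lie in the stroma of the choroid plexus. An end fraction holds the outermost slices along its axis, while an inner fraction meets the outer surface at its rim. This is the reason for comparing them. The amount of surface in each fraction was not measured and may differ between the ends.

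All 10 genes had a higher mean level in the ends than in the inner fractions in each of the 3 series. The difference averaged over the series ran from 0.69 (Lum) to 1.14 (Slc6a13) on the log2 scale, or 1.61-fold to 2.21-fold, with a median of 0.96 over the 10 genes beside 0.05 over all 32364 probes tested. In a linear model across all probes (limma, Benjamini-Hochberg adjustment), 9 of the 10 genes were called higher in the ends at an adjusted p below 0.05, where 0.535 percent of all probes tested were called higher. The exception was Slc22a6, at an adjusted p of 0.0507. The genes were chosen with earlier results of these data known, so these calls are not an independent test of them. The number called depends on the processing and on single fractions: it was 1 with slide as a fixed term (0.0185 percent of all probes called higher), 2 without a filter on dim probes (0.106 percent), and 0 with array median scaling (0.00309 percent) or with array signal as a covariate (0 percent). The difference averaged over the series was above 0 for each gene in the 41 alternatives run. In single series the direction turned in 9 of 1200 values, over the 40 alternatives that give values by series. These were Lum in the coronal series in 6 alternatives (-0.62 without coronal fraction 12, -0.13 with the outer 2 fractions as ends and -0.04 to -0.01 without coronal fraction 2, 6, 9 or 11), Igf2 in the horizontal series (-0.08 with array median scaling and -0.07 without horizontal fraction 1) and Aldh1a2 in the sagittal series (-0.15 with the outer 2 fractions as ends). The fractions of a series come from 1 mouse and neighbouring fractions are not independent, so the p-values describe these 3 brains and not mice in general. When limma was run on 1 difference per mouse (n = 3 mice), it called 0 of the 10 genes and 0 of all probes (adjusted p = 0.780 for each of the 10). At an unadjusted limma p below 0.05 were 9 genes, all but Lum, and, in either direction, 1867 of the 32364 probes. In such bulk samples, more cells of a type and more RNA per cell cannot be told apart.

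The series were oriented by marker genes, since fraction numbers carry no direction by themselves. The hindbrain markers were highest in coronal fraction 1 and those of the olfactory sensory axons and bulb in coronal fraction 12. The cerebral cortex markers were highest in horizontal fraction 1, and the markers of hypothalamus and pituitary in horizontal fraction 6. Hypothalamic markers peaked in sagittal fraction 5 (2.60) and lay at -2.52 and 0.64 in sagittal fractions 1 and 10, which are therefore taken as lateral. Pituitary markers were highest in sagittal fraction 9 (0.85). Each end is thus also a brain region of its own, and nearness to the surface and region cannot be told apart at any single end.

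**Figure D1:**
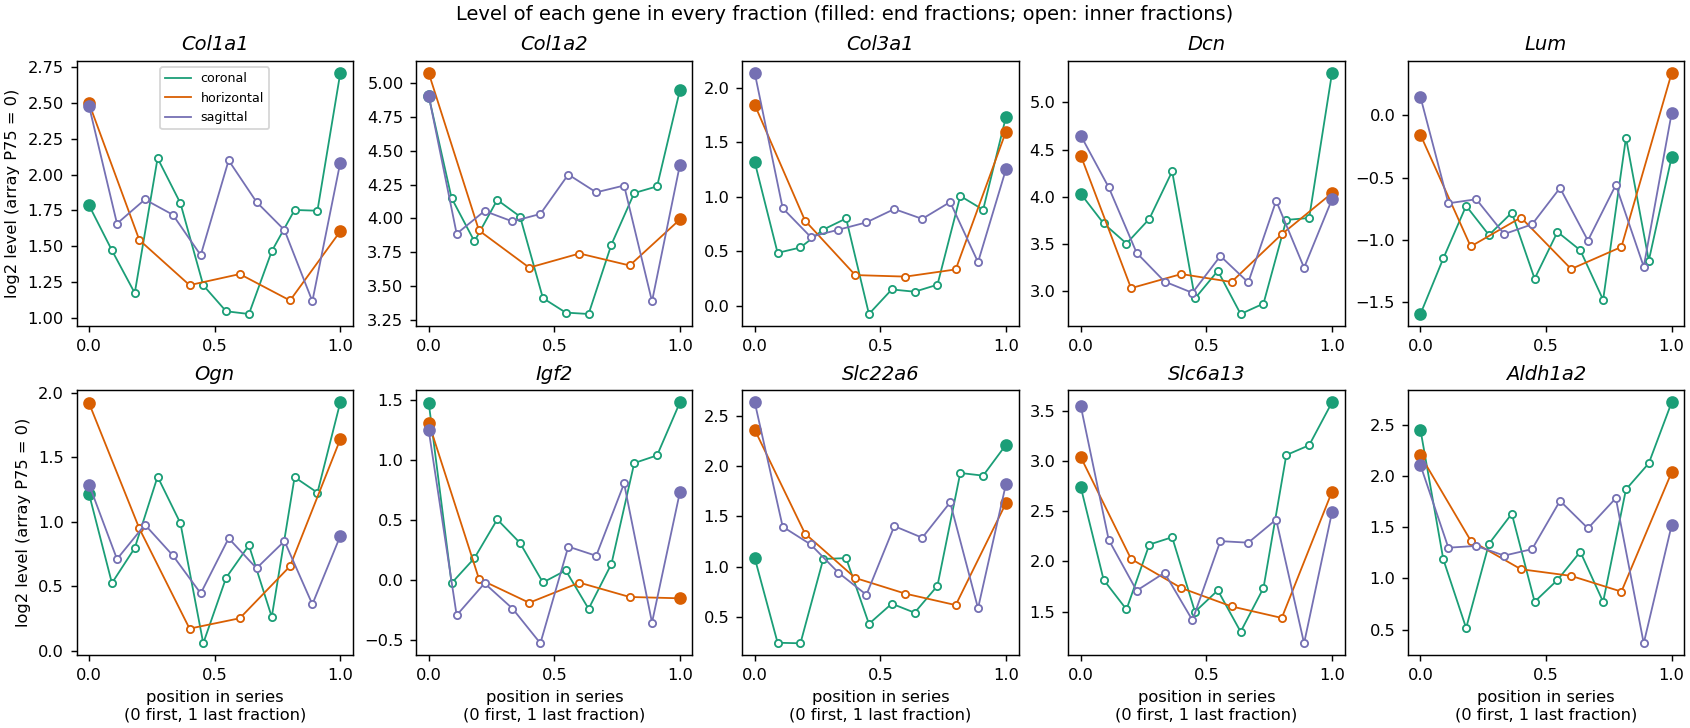
Level of each of the 10 genes in every fraction, as log2 of the processed signal relative to the 75th percentile of the array (y), against the position in the series from 0 (first fraction) to 1 (last fraction). Colours are the 3 series, filled points the ends and open points the inner fractions; 47 of the 60 filled points lie above all open points of their colour, and Lum in coronal fraction 1 and Igf2 in horizontal fraction 6 lie below the inner mean.

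Levels are given throughout as log2 of the processed signal minus log2 of the 75th percentile of the same array, and a difference of 1 is a doubling. Because probes differ in brightness, levels of different genes are not compared.

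Col1a1 and Col1a2 encode the chains of type I collagen and Col3a1 the chain of type III collagen, the fibrillar collagens of soft connective tissue. Col3a1 lay at 1.32 in coronal fraction 1 and at 1.73 in coronal fraction 12, while its 10 coronal inner fractions ran from -0.08 through a median of 0.51 to 1.01. Its horizontal ends lay at 1.85 and 1.60 and its inner fractions 2 to 5 at 0.78, 0.28, 0.27 and 0.33. In the sagittal series it lay at 2.14 and 1.25 in the ends, with inner fractions from 0.40 through 0.78 to 0.95. The ends and inner fractions of Col3a1 did not overlap in any series, which held for 2 of the 10 genes, the other being Col1a2, and for 0.0494 percent of all probes tested. The difference was 1.05 in the coronal, 1.31 in the horizontal and 0.94 in the sagittal series, and the mean of the 3 was 1.10 ± 0.15 (SE, 2.14-fold, adjusted p = 0.00119).

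Col1a2 lay at 4.90 and 4.95 in the coronal ends, above inner fractions from 3.29 through 3.92 to 4.24. Its horizontal ends were unequal, with 5.07 in fraction 1 and 3.99 in fraction 6, beside 3.91, 3.64, 3.74 and 3.65 in fractions 2 to 5. The sagittal ends lay at 4.91 and 4.40 and the inner fractions ran from 3.39 through 4.04 to 4.32. The dorsal end thus stood 2.53-fold above the inner mean and the ventral end 1.20-fold. The mean difference of Col1a2 was 0.84 ± 0.16 (SE, adjusted p = 0.0222).

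Col1a1 followed Col1a2 closely, with a correlation of 0.90 over the 28 fractions after each series was centred. It was highest in coronal fraction 12 (2.71), horizontal fraction 1 (2.50) and sagittal fraction 1 (2.48). Its coronal inner fractions ran from 1.03 to 2.11, and 2 of them lay above the 1.78 of coronal fraction 1. Horizontal fraction 6 was again a weak end for type I collagen, at 1.60 beside a highest inner value of 1.54. The mean difference of Col1a1 was 0.71 ± 0.17 (SE, adjusted p = 0.0459).

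Dcn (decorin), Lum (lumican) and Ogn (osteoglycin) encode small leucine-rich proteoglycans, which bind collagen fibrils. Dcn lay at 4.03 in coronal fraction 1 and at 5.31 in coronal fraction 12, and its coronal inner fractions ran from 2.76 (fraction 8) through 3.61 to 4.27 (fraction 5). Its 5.85-fold range over the coronal series was the widest of the 10 genes in any series. The horizontal ends lay at 4.44 and 4.04 and the inner fractions at 3.03, 3.18, 3.10 and 3.60. In the sagittal series the ends lay at 4.65 and 3.97, beside inner fractions from 2.98 through 3.31 to 4.10. One inner fraction overlapped the lower end in the coronal series and 1 in the sagittal series. The mean difference of Dcn was 1.04 ± 0.21 (SE, adjusted p = 0.0301).

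Lum departed from the other genes in the coronal series. It lay at -1.60 in coronal fraction 1, below all 10 inner fractions (-1.49 through -1.02 to -0.18), and at -0.34 in coronal fraction 12, below inner fraction 10. The coronal difference was 0.01, beside 1.14 in the horizontal and 0.91 in the sagittal series. In the horizontal series Lum was highest in fraction 6 (0.34), where the 9 other genes were highest in fraction 1, and its horizontal fraction 1 lay at -0.16. Its horizontal inner fractions lay at -1.06, -0.82, -1.24 and -1.06. The sagittal ends lay at 0.15 and 0.02, above inner fractions from -1.22 through -0.79 to -0.56. The mean difference was 0.69 ± 0.16 (SE, adjusted p = 0.0459). The difference between series in the end effect, tested for Lum by the limma F-test, had an adjusted p of 0.179, with an unadjusted p of 0.0199.

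Ogn lay at 1.21 and 1.92 in the coronal ends, at 1.92 and 1.64 in the horizontal ends and at 1.29 and 0.89 in the sagittal ends. The highest inner fractions of these series lay at 1.35, 0.95 and 0.98, so that the horizontal ends alone were both clear of them. Its range over the sagittal series was 1.90-fold, the narrowest of the 10 genes in any series. The mean difference of Ogn was 0.81 ± 0.17 (SE, adjusted p = 0.0310).

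Igf2 encodes insulin-like growth factor 2, a growth factor that in the postnatal brain is made mainly by the leptomeninges and the choroid plexus. It lay at 1.48 in both coronal ends and between -0.24 and 1.04, with a median of 0.15, in the coronal inner fractions. In the horizontal series it lay at 1.31 in fraction 1 and at 0.01, -0.19, -0.03, -0.14 and -0.16 in fractions 2 to 6. The ventral end of Igf2 thus lay within the inner fractions, below 3 of the 4. In the sagittal series the ends lay at 1.25 and 0.73, beside inner fractions from -0.53 through -0.14 to 0.80. The mean difference was 0.95 ± 0.20 (SE, adjusted p = 0.0310), with 1.19, 0.67 and 1.01 in the coronal, horizontal and sagittal series.

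Slc22a6 encodes the organic anion transporter OAT1 and Slc6a13 the GABA and taurine transporter GAT2, both carried by leptomeningeal cells. Slc6a13 lay at 2.74 and 3.58 in the coronal ends, and its coronal inner fractions ran from 1.30 through 1.78 to 3.16, where the highest, fractions 10 and 11, adjoin the rostral end. The horizontal ends lay at 3.04 and 2.69, above inner fractions at 2.03, 1.74, 1.55 and 1.44. The sagittal ends lay at 3.55 and 2.49, above inner fractions from 1.19 through 2.04 to 2.42. The mean difference of Slc6a13 was 1.14 ± 0.24 (SE, adjusted p = 0.0310), and its 3 series lay closest together of the 10 genes, at 1.14, 1.18 and 1.12.

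Slc22a6 ran in parallel, and the correlation of 0.96 between these 2 transporters over the 28 series-centred fractions was the highest of the 45 pairs among the 10 genes. Slc22a6 lay at 1.08 and 2.21 in the coronal ends, and 2 coronal inner fractions, of which the highest reached 1.93, lay above the caudal end. It lay at 2.36 and 1.63 in the horizontal ends and at 2.63 and 1.82 in the sagittal ends, all above their inner fractions, which reached 1.33 and 1.64. Its mean difference of 0.98 ± 0.24 (SE) carried the adjusted p of 0.0507 given above.

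Aldh1a2 encodes retinaldehyde dehydrogenase 2, an enzyme that makes retinoic acid and marks arachnoid and other leptomeningeal cells. It lay at 2.45 and 2.72 in the coronal ends, above inner fractions from 0.52 through 1.22 to 2.13. The horizontal ends lay at 2.20 and 2.04, beside 1.37, 1.09, 1.03 and 0.87 in the inner fractions. In the sagittal series the ends lay at 2.11 and 1.52 and the inner fractions ran from 0.37 through 1.31 to 1.79, so that 2 inner fractions lay above fraction 10. The mean difference was 0.96 ± 0.20 (SE, adjusted p = 0.0310), with 1.34, 1.03 and 0.50 in the coronal, horizontal and sagittal series.

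**Figure D2:**
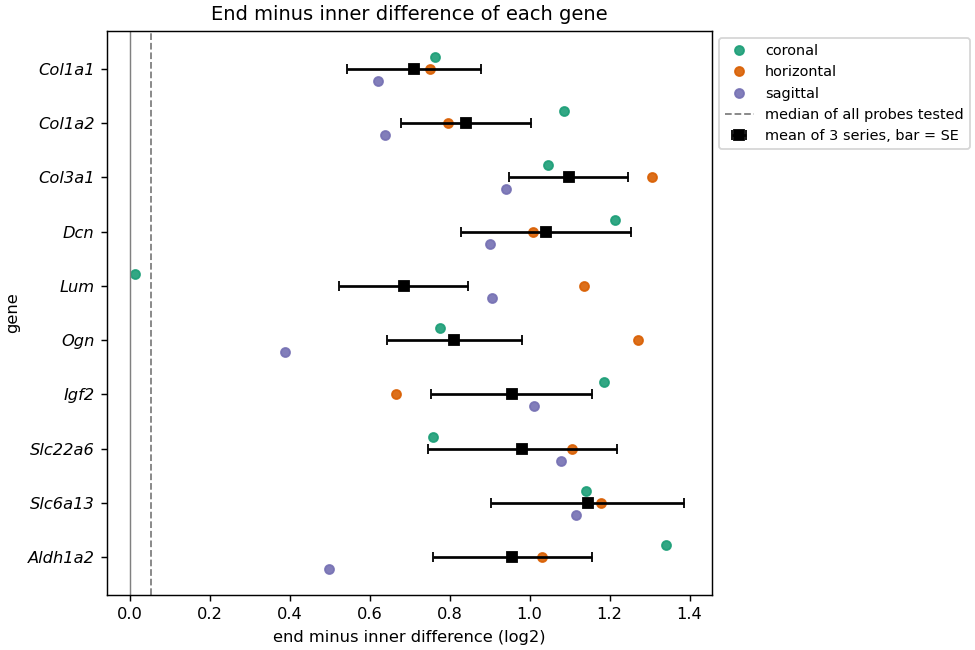
Difference in log2 level between the end and inner fractions of each gene (x), for each series (coloured points, 2 ends against 10, 4 or 8 inner fractions) and for the mean of the 3 series with its SE from the limma fit (black squares and bars). All mean differences lie between 0.69 and 1.14, right of the dashed median of all probes tested at 0.05, and the coronal point of Lum lies at 0.01.

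Single ends differed in how far they rose. In horizontal fraction 1 and in sagittal fraction 1, all 10 genes lay above every inner fraction of the series, with median differences from the inner mean of 1.34 and 1.11, beside 35.9 percent and 32.1 percent of all probes tested. In coronal fraction 12, 9 of 10 lay above every inner fraction (median 1.24, 11.6 percent of all probes), and in horizontal fraction 6 also 9 (median 0.88, 35.5 percent of all probes). In sagittal fraction 10 these were 5 of 10 (median 0.53, 16.2 percent of all probes) and in coronal fraction 1 they were 4 of 10 (median 0.65, 10.4 percent of all probes). Over the 60 combinations of gene and end, 58 lay above the inner mean, the exceptions being Lum in coronal fraction 1 and Igf2 in horizontal fraction 6. Both ends lay above every inner fraction for 4 of the 10 genes in the coronal series, 9 in the horizontal and 5 in the sagittal series, beside 1.63 percent, 23.2 percent and 11.9 percent of all probes tested. The share over all probes was largest in the horizontal series, which has 4 inner fractions. Its ends also had array 75th percentiles of 267 and 233, beside 385 to 458 in its inner fractions. The cause of the large share was not tested.

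Tested in 1 series at a time, fewer genes passed. In the coronal series limma called 0 of the 10 genes higher (0.00927 percent of all probes), with 8 higher at an unadjusted p below 0.05, as were 4.86 percent of all probes. In the horizontal series it called 0 of 10 (0.0154 percent of all probes), with 9 higher at an unadjusted p below 0.05, as were 11.2 percent of all probes. In the sagittal series it called 2 of 10, Col3a1 (adjusted p = 0.0340) and Lum (adjusted p = 0.0489), where 4.82 percent of all probes were called higher, and 8 were higher at an unadjusted p below 0.05, as were 20.2 percent of all probes. With array median scaling, 8, 0 and 0 of the 10 genes were higher at an unadjusted p below 0.05 in the coronal, horizontal and sagittal series, as were 4.10, 3.89 and 8.27 percent of all probes. With array signal as a covariate these were 8, 6 and 3 genes, beside 6.68, 1.97 and 10.2 percent of all probes. The F-test of a difference between the series called 0 of 10 (0.0216 percent of all probes), with 1, Lum, at an unadjusted p below 0.05, as were 21.0 percent of all probes. Without sagittal fraction 1, 3 or 4, sagittal calls fell to 0 (0.0618, 2.08 and 1.80 percent of all probes called higher), and each of 14 other omissions (coronal fractions 4 to 8, any horizontal fraction and sagittal fractions 5 to 7) left 1 (1.92 to 4.28 percent). Without sagittal fraction 9 the horizontal calls rose to 4, where the share of all probes called higher in that series rose to 7.32 percent. Without coronal fraction 11 the coronal calls rose to 3 (0.436 percent of all probes), and without coronal fraction 1 they rose to 1 (0.457 percent).

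An exact permutation test was also run for each gene, in which 2 fractions of each series were redrawn as ends in all 44550 ways (two-sided, no adjustment over the 10 tests). The p ranged from 2.24e-05, the smallest that these arrangements allow, for Col1a2 and Col3a1 to 0.00238 for Lum. For Slc22a6 it was 0.000584 by this exact test. These p-values too belong to genes that were chosen with earlier results of these data known. The redraw treats the fractions of a series as exchangeable, whereas neighbouring fractions are not independent and the inner fractions were not flat. It was run for the 10 genes and not for all probes; in limma, 15.0 percent of all probes were higher in the ends at an unadjusted p below 0.05.

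The inner fractions were not flat. In the coronal series the mean of the 10 series-centred genes lay at 0.43 in fraction 1, at -0.27 and -0.35 in fractions 2 and 3, and at 0.11 and 0.13 in fractions 4 and 5. It then fell to between -0.62 and -0.43 in fractions 6 to 9 and rose to 0.46, 0.39 and 1.12 in fractions 10 to 12. The lowest coronal level lay in fraction 8 for 5 genes, and in fraction 10 or 11 lay the highest inner level for 7 genes. In the horizontal series 8 genes had their highest inner level in fraction 2, next to the dorsal end. In the sagittal series 8 of the 10 genes were lowest in fraction 9, although it adjoins the lateral end, and 6 genes had their highest inner level in fraction 8. Sagittal fraction 9 also stands apart as an array, with a 75th percentile of 176, the lowest of the inner fractions. Other gene lists, described below, had their sagittal low there too, among them astrocytes (-1.05), collagen processing (-0.69) and endothelium (-0.50). The lists of pituitary (0.85), skeletal muscle (0.30), cartilage (0.08) and neurons (0.06) lay above 0 in that fraction.

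The 10 genes moved together. Over the 28 series-centred fractions, the correlation between 2 of them ran from 0.45 (Col1a2 with Lum) to 0.96, with a median of 0.81 over the 45 pairs. Col3a1 and Slc6a13 followed the mean of the other 9 genes at a correlation of 0.95 and 0.96, and Lum at 0.65, with 0.42 in the coronal series alone. The points share arrays, their scaling and their mouse, and these correlations are descriptions. Among all other named genes tested, the 5 whose profile was most like the mean of the 10 genes over the 28 fractions were Mpzl2 (0.96), Serping1 (0.95), Gstm2 (0.94), Gypc (0.93) and Thbd (0.93). Without centring the correlations of these 5 genes were 0.95, 0.94, 0.93, 0.92 and 0.92. Mpzl2 encodes an adhesion protein of epithelia and Serping1 the C1 inhibitor of complement.

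Since the genes moved together, the sequences around the start sites of Col3a1, Col1a2, Slc22a6 and Slc6a13 are shown, 2 fibrillar collagens and the 2 transporters with the closest profiles. They are RefSeq promoter windows of 300 bases, from 250 before to 50 after the annotated start (build GRCm38.p6, plus strand), and 7 of the 10 genes had such a window. Capitals mark matches on either strand to TATAAA (the core of a TATA box), CCAAT (a binding sequence of NF-Y), GGGCGG (a GC box), GTAAACA (the core of a forkhead motif) and CATTCC (the core of a TEAD motif). The window of Col3a1 is chr1:45311288-45311587, that of Col1a2 chr6:4505368-4505667, that of Slc22a6 chr19:8617746-8618045, and the first of 3 of Slc6a13 chr6:121300038-121300337.
Col3a1: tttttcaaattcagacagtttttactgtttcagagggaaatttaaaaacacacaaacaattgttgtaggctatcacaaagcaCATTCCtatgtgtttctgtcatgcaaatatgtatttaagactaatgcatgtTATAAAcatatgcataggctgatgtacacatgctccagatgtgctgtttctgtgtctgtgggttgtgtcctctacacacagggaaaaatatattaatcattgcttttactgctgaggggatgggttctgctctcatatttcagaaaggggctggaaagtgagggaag
Col1a2: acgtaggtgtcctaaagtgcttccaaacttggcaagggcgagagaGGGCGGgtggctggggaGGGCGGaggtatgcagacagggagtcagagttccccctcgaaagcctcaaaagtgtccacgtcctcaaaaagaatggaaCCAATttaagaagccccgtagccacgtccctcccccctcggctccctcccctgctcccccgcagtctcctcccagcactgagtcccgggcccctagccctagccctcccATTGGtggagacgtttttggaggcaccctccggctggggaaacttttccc
Slc22a6: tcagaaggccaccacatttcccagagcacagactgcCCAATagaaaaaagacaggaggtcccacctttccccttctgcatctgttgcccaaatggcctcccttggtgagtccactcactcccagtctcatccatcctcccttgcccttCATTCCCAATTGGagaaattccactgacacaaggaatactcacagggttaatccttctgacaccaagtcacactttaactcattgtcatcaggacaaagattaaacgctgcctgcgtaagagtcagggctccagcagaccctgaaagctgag
Slc6a13: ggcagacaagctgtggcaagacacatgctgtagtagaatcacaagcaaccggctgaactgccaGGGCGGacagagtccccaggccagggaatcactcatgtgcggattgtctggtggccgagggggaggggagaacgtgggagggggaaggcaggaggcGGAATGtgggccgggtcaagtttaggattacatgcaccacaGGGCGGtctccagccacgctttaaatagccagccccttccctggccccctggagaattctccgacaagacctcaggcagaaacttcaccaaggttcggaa

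In these windows Col3a1 has 1 TATAAA and 1 CATTCC, Col1a2 has 2 CCAAT and 2 GGGCGG, Slc22a6 has 3 CCAAT and 1 CATTCC, where 1 CCAAT overlaps both the CATTCC and the CCAAT of the other strand, and Slc6a13 has 2 GGGCGG and 1 CATTCC. The 7 genes have 12 windows, of which 4 belong to Igf2 and 3 to Slc6a13, and a gene is counted once if any of its windows holds a motif. CATTCC and CCAAT each occurred in 5 of the 7 genes, GGGCGG in 3, TATAAA in 2 and GTAAACA in 0. Of all 27025 genes with a RefSeq promoter window, 16.6 percent hold CATTCC, 41.1 percent CCAAT, 38.2 percent GGGCGG, 15.7 percent TATAAA and 4.05 percent GTAAACA. Per window these shares are 14.7, 37.4, 35.7, 13.6 and 3.65 percent of 32851 windows. A match is a run of letters and not a measured binding site.

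Other genes of the same cells and pathways were taken from lists, which were chosen with earlier results of these data known. The lists overlap in 5 genes, Crabp2, Igfbp2, Igfbp6, Slc22a2 and Slc22a8, which are also among the other meningeal fibroblast genes. Of 26 other meningeal fibroblast genes tested, 10 rose in the ends, 0 fell and 23 had a difference above 0, with a median of 0.72. Over all probes tested, 0.535 percent were called higher, 55.7 percent had a difference above 0 and the median was 0.05, and the counts of the lists that follow are to be read beside these values. The genes with the largest mean differences among those called were Slc47a1, a multidrug exporter (1.53, adjusted p = 0.0434), Crabp2, a retinoic acid binding protein (1.10, adjusted p = 0.0393), Foxc2, a forkhead factor of the meninges (1.09, adjusted p = 0.0310), and Thbd, thrombomodulin (1.03, adjusted p = 0.0126). The mean of the 26 genes followed the mean of the 10 genes at a correlation of 0.97 over the 28 fractions, a description over shared arrays. In coronal fraction 1 the series-centred mean of the 26 genes lay at 0.04, beside 0.43 for the 10 genes. It was there below its own inner fractions 4, 5, 10 and 11 (0.15, 0.06, 0.46 and 0.56), and it lay at 1.05 in coronal fraction 12.

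Of the 7 other small leucine-rich proteoglycans tested, 2 rose, 0 fell and 5 had a difference above 0, with a median of 0.65. Those 2 were Omd (osteomodulin, 1.01, adjusted p = 0.0434), the gene next to Ogn in the RefSeq order, and Podn (podocan, 0.65, adjusted p = 0.0434). Kera, the gene next to Lum, was in no fraction well above background. Of 13 other collagens tested, 0 rose and 0 fell in the limma fit, as the share over all probes would also give for a list of this size, and 9 had a difference above 0. Their median was 0.46, with 0.81, 0.38 and 0.13 in the coronal, horizontal and sagittal series. Col6a1 of type VI collagen had a difference of 0.81 (adjusted p = 0.0679), while Col4a1 of the basement membrane of vessels had -0.05 (adjusted p = 0.870). Of 22 genes of collagen processing, 1 rose, Adamts2, the procollagen N-proteinase (0.90, adjusted p = 0.0459), with 13 differences above 0 and a median of 0.10 over the list.

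Of 16 genes of the retinoic acid pathway, 1 rose, Crabp2, 9 had a difference above 0 and the median was 0.04. Aldh1a1, which makes retinoic acid elsewhere in the brain, had -0.04 (adjusted p = 0.946). Of 10 genes of the insulin-like growth factor system, 0 rose and 0 fell in the limma fit, 7 had a difference above 0 and the median was 0.12. The binding proteins Igfbp6 (0.85, adjusted p = 0.0952) and Igfbp2 (0.80, adjusted p = 0.101) had the largest values, and the receptor Igf1r had -0.26 (adjusted p = 0.239). Of 11 related transporters, 0 rose and 0 fell in the limma fit, with 6 differences above 0 and a median of 0.05. Slc22a2 had the largest difference of these transporters, 0.93 (adjusted p = 0.185). Slc6a12, the neighbour of Slc6a13, had 0.77 (adjusted p = 0.0924) and Slc22a8, the neighbour of Slc22a6, had 0.16 (adjusted p = 0.564).

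Markers of other cells that an end fraction could hold were examined in 18 lists. Of the 93 marker genes tested, 0 rose and 1 fell, Ttr, the transthyretin of the choroid plexus epithelium, by 4.32 on the log2 scale (adjusted p = 0.0401). All 10 choroid plexus markers had differences below 0, with a median of -1.76, while the 10 meningeal genes, of which some are also found in choroid plexus stroma, had differences above 0. Markers of border macrophages, which live in the meninges, had differences above 0 for 5 of 5 genes tested, with a median of 0.83. Their linear level, summed over the 6 listed genes named on the array, was 5.09 to 16.6 in the ends and 2.97 to 13.4 in the inner fractions. Brighter probes weigh more in such a sum. Their profile followed that of the 10 genes at a correlation of 0.86. Red blood cell genes had differences above 0 for 5 of 5, with a median of 0.65 and a summed level of 115 to 815 in the ends and 33.1 to 528 in the inner fractions. The 4 pituitary markers tested had a median of 0.81, with -0.82, 2.16 and 0.56 in the coronal, horizontal and sagittal series. Cartilage (-0.24) and bone (-0.06) lists had medians below 0, as had the oligodendrocyte (-1.21), cerebral cortex (-0.84), neuron (-0.30), hypothalamus (-0.04) and Schwann cell (-0.03) lists. The medians of the olfactory (0.45), skeletal muscle (0.28), hindbrain (0.15), endothelium (0.12), astrocyte (0.12), mural cell (0.04) and mast cell (0.03) lists were nearer 0 than that of the 10 genes. In 11 of the 18 lists, pituitary included, the medians of the 3 series were not of 1 sign. Hindbrain markers had a median of 3.20 in the coronal and -2.12 in the sagittal series, cartilage markers 0.88 and -1.51, and Schwann cell markers 0.75 and -0.53. Olfactory markers had 3.18 in the coronal and -1.67 in the horizontal series, and hypothalamus markers had 3.06 in the horizontal and -1.51 in the coronal series. Cerebral cortex markers had -2.68 in the coronal, 0.20 in the horizontal and 0.39 in the sagittal series. The 10 genes had medians of 1.07, 1.07 and 0.90 in the coronal, horizontal and sagittal series. The part of these cells in the levels of the 10 genes was not tested.

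**Figure D3:**
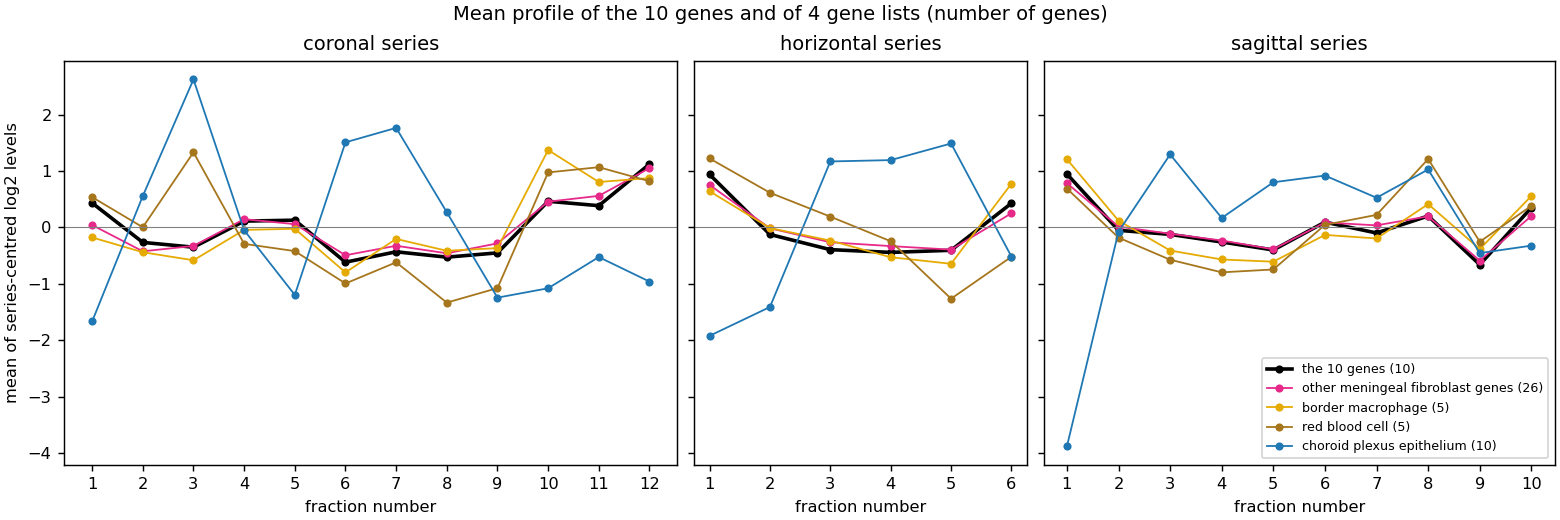
Mean of the series-centred log2 levels (y) in each fraction (x) for the 10 genes and 4 lists, with the number of genes tested in each. The 10 genes and the other meningeal fibroblast genes run together (correlation 0.97), border macrophage genes run close to them (0.86), and choroid plexus genes are low at the ends. In coronal fraction 1 the 10 genes lie at 0.43, the other meningeal fibroblast genes at 0.04 and the border macrophage genes at -0.18.

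The arrays of the ends had less signal. The 75th percentile of an array, to which all levels are relative, had a median of 250 in the 6 ends (135 to 421) and of 434 in the 22 inner fractions (176 to 574). Over the 28 fractions, its log2 ran against the mean of the 10 genes at a correlation of -0.52, of -0.67 without sagittal fraction 9 and of -0.24 over the 22 inner fractions. By series it was -0.49 in the coronal, -0.90 in the horizontal and -0.48 in the sagittal fractions. With log2 of this percentile as a covariate, the differences of the 10 genes lay between 0.66 and 0.96, each at an unadjusted limma p of 0.0261 or less. In that fit limma called 0 of the 10 genes and 0 of all probes. Counted in either direction, 1658 of the 32364 probes were at an unadjusted p below 0.05. When arrays were scaled to their median, the median difference of all probes moved from 0.05 to -0.21 and that of the 10 genes from 0.96 to 0.69. With this scaling limma called 0 of the 10 genes, with 8 at an unadjusted p below 0.05, all of them higher. Counted in either direction, 6341 of the 32364 probes tested were below it. Quantile normalization gave 9 of 10 called, where 0.331 percent of all probes were called higher.

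The arrays were on 4 slides, and 5 pairs of slide and series held both an end and an inner fraction. Within these, all 10 genes were higher in the ends in 4 pairs and 9 of 10 in the pair of coronal fractions 1 and 2, where Lum had a difference of -0.45. The median of the 10 genes within a slide ran from 0.55 (sagittal series, slide 3) to 1.07 (horizontal series, slide 1). With slide as a fixed term in limma, the differences lay between 0.66 and 1.02 and 1 gene, Col3a1, was called, beside 0.0185 percent of all probes called higher. With slide as a random block, 8 were called, beside 0.448 percent of all probes.

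Single arrays decided how many genes passed. Without coronal fraction 12, without horizontal fraction 1 and without sagittal fraction 1, limma called 1 of the 10 genes, in each case Col3a1. Without horizontal inner fraction 3 or 4 it called Col1a2 and Col3a1, and without fraction 5 these and Dcn. In these 6 omissions, 0.0216 to 0.278 percent of all probes were called higher. Each of the other 22 omissions left between 7 and 10 genes called, beside 0.256 to 11.0 percent of all probes (median 0.403 percent). The highest share, 11.0 percent, was that without sagittal fraction 9. Over the 41 alternatives, Col3a1 was called in 38 and Col1a2 in 34, and Dcn, Ogn, Igf2, Slc6a13 and Aldh1a2 in 29 or 30. Col1a1 was called in 14, and Lum and Slc22a6 in 12 each.

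**Figure D4:**
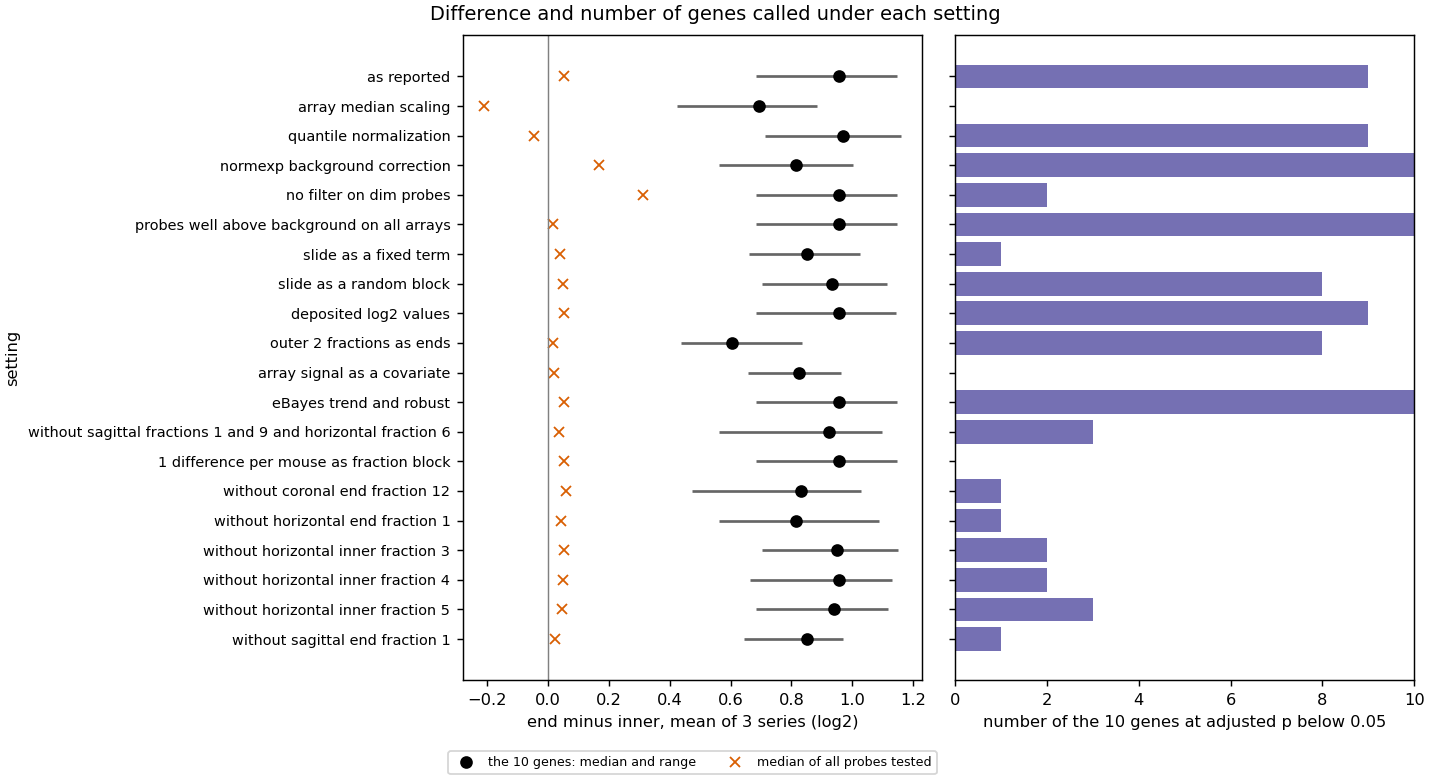
Left, the median (point) and range (line) of the end minus inner difference of the 10 genes, averaged over the series on the log2 scale, and the median of all probes tested (cross). Right, the number of the 10 genes called by limma; the upper rows change the processing or the test and the lower rows leave out fractions, and the differences stay above 0 while the number called runs from 0 to 10.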

How the data were processed

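RNA of 28 brain fractions, labelled with Cy3, was measured on 1-colour arrays of Agilent. The intensity values that the authors deposited are, per the file headers, processed signals of Agilent Feature Extraction 10.5.1.1, after background subtraction, with quality flags per spot; the probe layout follows mouse build mm9. For 44721 probes, log2 values were deposited by the authors as well. Of these, 99.84 percent lay within 0.01 of the log2 level used here, which is relative to the array's 75th percentile, after an offset per array of at most 0.00758. Fraction thickness differs between labels and methods, so positions are fraction numbers.

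Here, outlier and control spots were left out and spots of a probe averaged, giving 55681 probes, of which 27229 were named through RefSeq accessions. The 75th percentile was 135 to 574 per array, 24822 to 34240 probes were well above background, no spot was saturated, and repeated spots had an SD of 0.055 to 0.080 (log2). No replicate of a position exists, so the number of arrays limits the precision. In 1 or more fractions of every series, 32426 probes passed the background flag. Probes with no value left on some array, 130 of the 55681, were not fitted. The remaining 32364 probes were fitted with limma 3.58.1 (R 4.3.3), with 1 mean per series and position, and adjusted by Benjamini-Hochberg.

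The genes and lists were chosen with earlier results of these data known. Named genes were the 10 genes, up to 4 called genes per list with the largest differences, and the 5 closest profiles. Kera, Col6a1, Col4a1, Aldh1a1, Igfbp6, Igfbp2, Igf1r, Slc22a2, Slc6a12 and Slc22a8 were named after their values were seen. Alternatives were other scalings, background correction, filters, slide terms, the deposited log2 values, wider ends, array signal as covariate, another variance model and leaving out fractions; a fit on 1 difference per mouse was chosen after seeing the data. The normexp alternative (offset 50), planned on mean signals, used median signals, the foreground column the files hold, in place of the processed signals.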

Additional observations from a re-analysis of the deposited data

Results flagged for a closer look

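Among 30 sets of 4 to 10 inner fractions (10 genes in 3 series), 3 had 1 fraction far from the others by its gap relative to the range of the set, where chance gives about 1 in 20. Aldh1a2 was low in sagittal fraction 9, at 0.37 beside a nearest level of 1.22, a gap of 0.604 of the range. Col1a2 was low in the same fraction, at 3.39 beside 3.89, a gap of 0.533 of the range. Col3a1 was high in horizontal fraction 2, at 0.78 beside 0.33, a gap of 0.872 of the range. Sagittal fraction 9 had an array 75th percentile of 176, and its part in these levels was not tested.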

How the results depend on the processing

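The difference averaged over the series stayed above 0 for each of the 10 genes under all 41 alternatives, 28 of them leaving out 1 fraction. Over these, 273 of 410 values for single genes kept their side of an adjusted p of 0.05, 125 lost the call, 12 gained it and 0 reversed. The exact permutation p, not adjusted and so on another scale, was below 0.05 for all 10 genes. Instead of 9 genes called, there were 0 with array median scaling, 2 without a filter on dim probes, 1 with slide as a fixed term and 0 with array signal as a covariate. There were 0 with 1 difference per mouse as a replicate block, a pairing within each mouse chosen after seeing the data. Without sagittal fractions 1 and 9 and horizontal fraction 6 together there were 3, where 0.306 percent of all probes were called higher. With the outer 2 fractions as ends there were 8, where 17.0 percent of all probes were called higher. Leaving out 1 fraction gave 1 to 10. Instead of 0 coronal calls there were 2 with the outer 2 fractions as ends. The share of all probes called higher in that series was then 6.73 percent, beside 0.00927 percent in the main fit. Leaving out 1 fraction gave 0 to 3 coronal calls. Instead of 0 horizontal calls there were 1 with quantile normalization and 2 without the 3 fractions named. The shares of all probes called higher were then 0.0216 and 1.43 percent, beside 0.0154 percent in the main fit. Leaving out 1 fraction gave 0 to 4 horizontal calls. Instead of 2 sagittal calls, where 4.82 percent of all probes were called higher, there was 1 with quantile normalization (1.74 percent). There were 3 with normexp (17.0 percent) and 3 with probes well above background on all arrays (12.1 percent). There were 0 with array median scaling (0.0247 percent), no filter (1.08 percent), the outer 2 fractions as ends (18.6 percent) or the covariate (0.00927 percent). Without the 3 fractions named there were 0 (0.195 percent), and leaving out 1 fraction gave 0 to 3. Instead of 209 probes called in either direction there were 2 with array median scaling, 7221 with normexp, 64 without a filter, 8 with slide fixed, 9638 with the outer 2 fractions as ends, 0 with the covariate, 0 with the pairing within each mouse and 130 without the 3 fractions named; leaving out 1 fraction gave 8 to 5626. Without a filter more probes were tested (55551), and the fit per mouse has 3 values per probe; the cause of the other changes was not tested. Within a series, end and inner fractions share no fraction number, and a number shared between series names neither a mouse nor a position, so no pairing by number was made. Each gene had 1 matched probe, so no other probe could be tried. All 10 genes were well above background in all fractions; a limit by background signal was not tested. The normexp alternative changed the signal column, the background correction and the offset of 50 together, so its values belong to no single choice.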
